A study of Mus musculus with 2 samples.

Results

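The Hox cluster genes were examined in RNA from sorted keratinocytes of dorsal mouse skin. A gene was taken as a member when its symbol was Hox, a cluster letter from a to d and a number, and 39 of the 50559 genes listed met this rule. The Hoxa cluster supplied 11 of them, Hoxb 10, Hoxc 9 and Hoxd 9. The cells came from mice labelled Polr2b.fl.fl.GFP; K14Cre on postnatal day 21, when hair follicles rest (telogen). Both libraries carried this genotype, so the series holds no unmodified control. Cre recombinase was driven by the keratin 14 promoter, which is active in basal epidermis and the follicular lineages, and live GFP-positive cells were sorted. The libraries served to set nascent transcripts against the RNA that had accumulated in the cells. There was 1 group of 2 replicate libraries. The labels do not name the animals behind each library. Any p-value below measures only counting error or the spread between these 2 libraries.

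Hox genes encode homeodomain transcription factors that specify position along the head-to-tail axis of the embryo. Mammals carry 4 clusters, on mouse chromosomes 6 (Hoxa), 11 (Hoxb), 15 (Hoxc) and 2 (Hoxd), and genes of the same number in different clusters are paralogues. Low numbers are read at anterior levels and high numbers at posterior levels. Cells of adult skin keep part of this code, fibroblasts especially, and Hoxc13 has a separate known role in hair and nail, where it regulates hair keratins.

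The libraries held 36692204 and 33489967 counts. Replicate 1 had 112587 counts of Xist, the RNA of the inactive X chromosome, and replicate 2 had 11, while the Y-linked gene Uty had 0 and 2394 counts. The labels give no sex, but these values show that the libraries did not come from one animal, and sex, animal and replicate cannot be told apart. The keratinocyte label was checked against markers. All 10 basal keratinocyte markers passed 1 CPM (1 count in 1000000 counts of the library) in both libraries, with a summed level of 14128 CPM in replicate 1 and 19818 CPM in replicate 2. All 10 fibroblast markers and all 9 myeloid markers passed it too, at summed levels of 13757 and 6834 CPM for fibroblasts and 7850 and 8530 CPM for myeloid cells. The Hox RNAs described below were therefore measured in a fraction that also held RNA of dermal and immune cells, and the counts do not show which cells made them. Endothelial markers summed to 68.8 and 44.0 CPM, melanocyte markers to 124 and 92.0 CPM, and T cell markers to 4.39 and 2.78 CPM, with no count for Trdc. In bulk RNA, fewer cells of a type and less RNA per cell cannot be told apart.

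Hox RNA was a small part of the total. The 39 genes together had 5591 counts in replicate 1 and 4351 in replicate 2, or 0.0152% and 0.0130% of all counts. Their summed level was 141 ± 15.9 CPM (SD, n = 2). Of the 39 genes, 22 reached 1 CPM in both libraries, or 56.4%, beside 31.3% of all genes listed and 66.8% of the 23690 genes with 10 or more counts over both libraries. This level corresponds to 36.7 counts in replicate 1 and 33.5 counts in replicate 2. To compare genes with each other, levels were divided by gene length and rescaled to sum to 1000000 in each library, which gives TPM. Among all genes that reached 1 CPM in each library, 3 Hox genes, Hoxa7, Hoxa5 and Hoxc13, exceeded the median by mean TPM. Hoxa7 stood at percentile 59.2. Hoxc13 stood at 50.1, with 16.8 TPM in replicate 1 and 9.17 TPM in replicate 2. Depth limits the low end, since 3 counts, the limit that a count of 0 allows, are 0.0818 CPM in replicate 1 and 0.0896 CPM in replicate 2.

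RNA was concentrated in the middle of the clusters. Of the 15 genes of paralogue groups 4 to 8, 14 reached 1 CPM in both libraries, and they held 61.8% of Hox counts in replicate 1 (exact Clopper-Pearson 95% interval 60.5 to 63.1) and 65.0% in replicate 2 (63.6 to 66.4). Of the 8 genes of groups 1 to 3, 5 reached 1 CPM, with 17.6% and 20.7% of Hox counts. Of the 16 genes of groups 9 to 13, 3 did, Hoxa9, Hoxb9 and Hoxc13, with 20.6% and 14.3%. Hoxc13 by itself held 10.8% and 6.92%. Summed by paralogue group in TPM, levels were highest for groups 5 to 8. In replicates 1 and 2, group 5 had 18.7 and 17.8 TPM and group 6 had 27.3 and 21.2 TPM. Group 7 had 19.7 and 24.3 TPM, and group 8 had 27.8 and 20.8 TPM. This ranking depends on the listed gene lengths. By CPM, group 3 (19.2 and 17.7) exceeded group 5 (14.9 and 13.9) in both libraries. Group 12 had 0.264 TPM in replicate 1 and no count in replicate 2. The intervals cover counting error only, since amplified reads carried no molecular identifiers and can repeat a molecule.

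**Figure D1:**
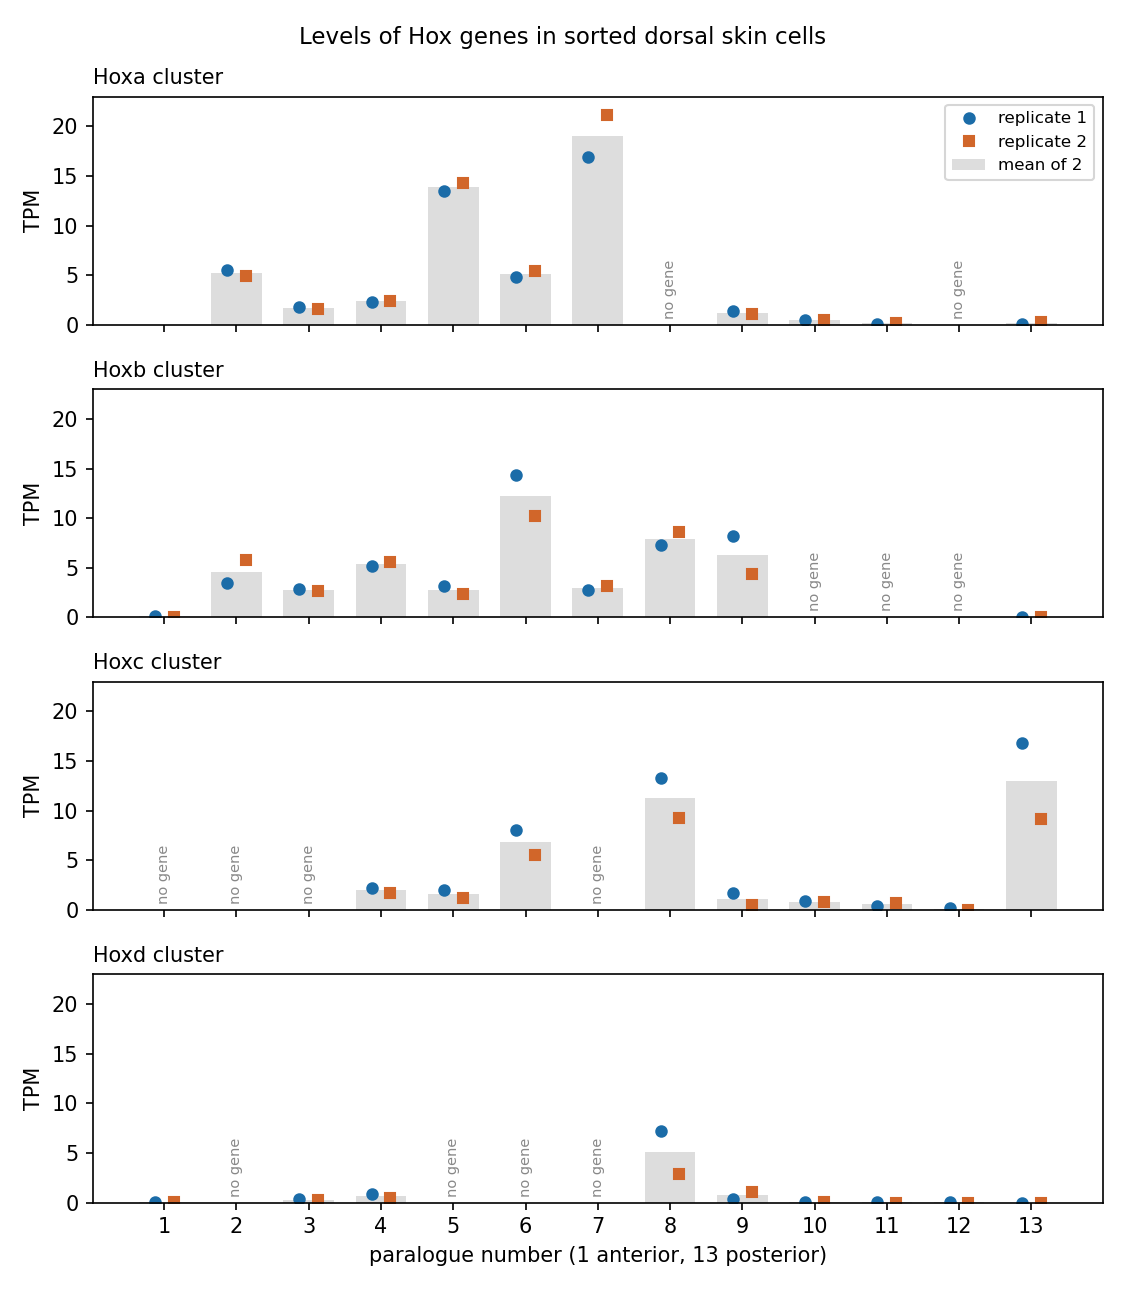
Level of Hox genes in TPM (vertical axis) against paralogue number (horizontal axis), with 1 panel per cluster. Circles are replicate 1, squares replicate 2 and bars their mean, and a position without points was not plotted. Levels above 10 TPM in both libraries were seen for Hoxa5, Hoxa7 and Hoxb6, and Hoxc13 stands apart from the near-empty posterior ends of all clusters.

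Hoxa7, a gene of thoracic patterning that has also been tied to keratinocyte differentiation, had the highest mean level. It stood at 16.9 TPM in replicate 1 and 21.1 TPM in replicate 2, and both values lay above both values of the next gene. That gene was Hoxa5, which patterns the lower neck and lung, at 13.5 and 14.3 TPM. Hoxc13 followed at 16.8 and 9.17 TPM. Hoxb6 had 14.3 and 10.2 TPM, and Hoxc8, a gene of thoracic patterning, had 13.3 and 9.30 TPM. The values of Hoxa5, Hoxc13, Hoxb6 and Hoxc8 overlapped from one gene to the next, so their order is not resolved by these libraries. Over the 22 genes at 1 CPM, the values of 16 of the 21 pairs of neighbours in the order overlapped. The pairs without overlap were Hoxa7 and Hoxa5, Hoxc8 and Hoxb8, Hoxb2 and Hoxb7, Hoxb3 and Hoxa4, and Hoxa4 and Hoxc4. Only neighbours were compared, so not every such gap divides the order. Hoxd8, ranked above Hoxb2, had 7.19 and 2.92 TPM, which overlapped Hoxb7 at 2.77 and 3.18 TPM. Hoxb5, ranked above Hoxb3, had 3.21 and 2.35 TPM, which overlapped Hoxa4 at 2.33 and 2.42 TPM. This order rests on the gene lengths listed with the counts, which for some genes differ from the exon bases in GENCODE release M21. Hoxa7 is listed at 1952 bases against 2876 in that release, Hoxa6 at 2254 against 874, and Hoxa5 at 1877 in both. The lead of Hoxa7 over Hoxa5 and the other gaps between neighbours thus hold for the listed lengths only.

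The upstream sequences of 3 Hox genes are shown. Hoxa7 is the highest member by mean TPM, Hoxd8 the Hoxd gene at 1 CPM in both libraries and Hoxd13 the member without a count. Each sequence is the 250 bases before the annotated start from RefSeq on GRCm38.p6, a build other than that of the counts, with every CpG in capitals. Hoxa7 is at chr6:52218574-52218823 on the minus strand, Hoxd8 at chr2:74704365-74704614 and Hoxd13 at chr2:74667975-74668224, both on the plus strand.
Hoxa7: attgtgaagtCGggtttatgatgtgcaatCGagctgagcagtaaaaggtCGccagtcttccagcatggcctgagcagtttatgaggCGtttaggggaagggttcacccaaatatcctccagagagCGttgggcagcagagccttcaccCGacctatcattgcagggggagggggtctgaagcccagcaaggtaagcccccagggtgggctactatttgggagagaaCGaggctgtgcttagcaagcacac
Hoxd8: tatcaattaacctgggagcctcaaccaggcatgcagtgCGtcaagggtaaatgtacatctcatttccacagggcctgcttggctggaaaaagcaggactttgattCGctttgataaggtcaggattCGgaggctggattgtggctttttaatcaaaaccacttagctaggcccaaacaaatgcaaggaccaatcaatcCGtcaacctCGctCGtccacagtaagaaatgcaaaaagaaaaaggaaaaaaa
Hoxd13: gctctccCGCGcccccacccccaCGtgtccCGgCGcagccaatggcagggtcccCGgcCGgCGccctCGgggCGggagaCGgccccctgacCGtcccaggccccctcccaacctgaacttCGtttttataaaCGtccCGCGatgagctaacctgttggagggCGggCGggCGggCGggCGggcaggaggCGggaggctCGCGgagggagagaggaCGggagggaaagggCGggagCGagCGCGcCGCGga
The window of Hoxa7 holds 7 CpG, that of Hoxd8 holds 6 and that of Hoxd13 holds 31, so the member without a count has the most of the 3. These 3 do not stand for the other members. The window of Hoxa5, at 13.5 and 14.3 TPM, holds 28 CpG, and the windows of Hoxd11, with 2 and 0 counts, hold 2 and 20. Sequences were matched for 22 of the 39 genes, in 24 windows, with 2 to 35 CpG and a median of 12.5, beside a median of 6 over all 32851 windows. The motif TGATNNAT, a composite site bound by Hox proteins with Pbx partners, was searched on both strands. It was found in 4 of the 24 windows (16.7%), of Hoxa2, Hoxb1, Hoxb8 and Hoxd11, and in 7.68% of all windows. A match describes the sequence and shows no binding.

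The Hoxa cluster held RNA from Hoxa2 through Hoxa7. Hoxa2, which patterns the second branchial arch, had 146 counts in replicate 1 and 118 in replicate 2 (5.55 and 4.93 TPM), and Hoxa3, needed for thymus and parathyroid, had 286 and 234 counts, but 1.82 and 1.64 TPM because its listed length is 10599 bases. Hoxa3 was thus low per unit of listed length, although it had 7.79 and 6.99 CPM. In GENCODE release M21 it has 6014 exon bases, and 25.4% of them lie under antisense genes. Hoxa4 had 2.33 and 2.42 TPM and Hoxa6 4.82 and 5.43 TPM. Hoxa9, a gene of lumbar patterning that is also known from leukaemia, had 1.36 and 1.08 TPM. Beyond it RNA was scarce, with 25 and 22 counts for Hoxa10, which acts in the uterus, 3 and 7 for the forelimb gene Hoxa11 and 1 and 5 for the limb and genital gene Hoxa13.

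The Hoxb cluster was measured from Hoxb2 to Hoxb9 without a gap, as all 8 of these genes reached 1 CPM in both libraries. Hoxb2, which acts in the hindbrain, had 3.44 TPM in replicate 1 and 5.75 TPM in replicate 2. Hoxb3 had 2.83 and 2.68 TPM on a listed length of 9627 bases, and 404 and 348 counts. In GENCODE release M21 it has 4251 exon bases, and 52.9% of them lie under the antisense gene Hoxb3os. Hoxb4, known for its effect on blood stem cells, had 5.13 and 5.60 TPM. By TPM these anterior members stood below Hoxb6 in both libraries. By counts Hoxb3 stood above Hoxb6, which had 342 and 221. Hoxb5, a gene of the enteric neural crest, had 3.21 and 2.35 TPM and Hoxb7 2.77 and 3.18 TPM. Hoxb8, whose loss in mice causes excessive grooming, had 7.32 and 8.56 TPM, and Hoxb9, a gene of rib patterning, 8.20 and 4.36 TPM. Both ends of the cluster were near 0, with 6 and 0 counts for Hoxb1 and 1 and 0 counts for Hoxb13, a gene of the tail and prostate.

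The Hoxc cluster held 2 separated groups of expressed genes. The first ran from Hoxc4 at 2.25 and 1.73 TPM and Hoxc5 at 1.98 and 1.25 TPM to Hoxc6, a gene of thoracic and mammary development, at 8.10 and 5.58 TPM and Hoxc8. Hoxc9 had 71 and 20 counts and passed 1 CPM in replicate 1 only. The following genes were low, with 25 and 20 counts for Hoxc10, a gene of lumbar motor neurons, 6 and 9 for Hoxc11 and 3 and 0 for Hoxc12. The last gene, Hoxc13, had 606 and 301 counts. Hoxc13 and Hoxc12 neighbour each other in RefSeq, so the step between them, from 16.8 TPM to 0.211 TPM in replicate 1 and from 9.17 TPM to no count in replicate 2, lies between adjacent genes.

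In the Hoxd cluster, Hoxd8 alone reached 1 CPM in both libraries, at 7.19 TPM in replicate 1 and 2.92 TPM in replicate 2. Hoxd9 had 12 and 30 counts, Hoxd4, a gene of cervical patterning, 34 and 15, and Hoxd3 14 and 11. The gene models of Hoxd3 and Hoxd4 share 62.3% and 52.3% of their annotated exon bases with other genes on the same strand in GENCODE release M21, so their separate counts are uncertain. The limb gene Hoxd10 had 1 and 3 counts, Hoxd1 2 and 1, and Hoxd11 and Hoxd12 2 and 0 each. Hoxd13, which patterns the digits, was the 1 Hox gene without a count in either library. The cluster held 5.31% of Hox counts in replicate 1 (95% interval 4.74 to 5.93) and 3.33% in replicate 2 (2.82 to 3.91).

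The balance between clusters differed between the libraries. The Hoxa cluster held 29.4% of Hox counts in replicate 1 (95% interval 28.2 to 30.6) and 37.2% in replicate 2 (35.7 to 38.6), while the Hoxc cluster held 32.0% (30.8 to 33.3) and 23.9% (22.6 to 25.2). The Hoxb cluster held 33.3% (32.1 to 34.6) and 35.6% (34.2 to 37.0). Expressed without any scaling of the libraries, there were 1.09 Hoxc counts per Hoxa count in replicate 1 and 0.642 in replicate 2, and 0.181 and 0.0896 Hoxd counts per Hoxa count. The Hoxa total itself was 1641 and 1618 counts.

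**Figure D2:**
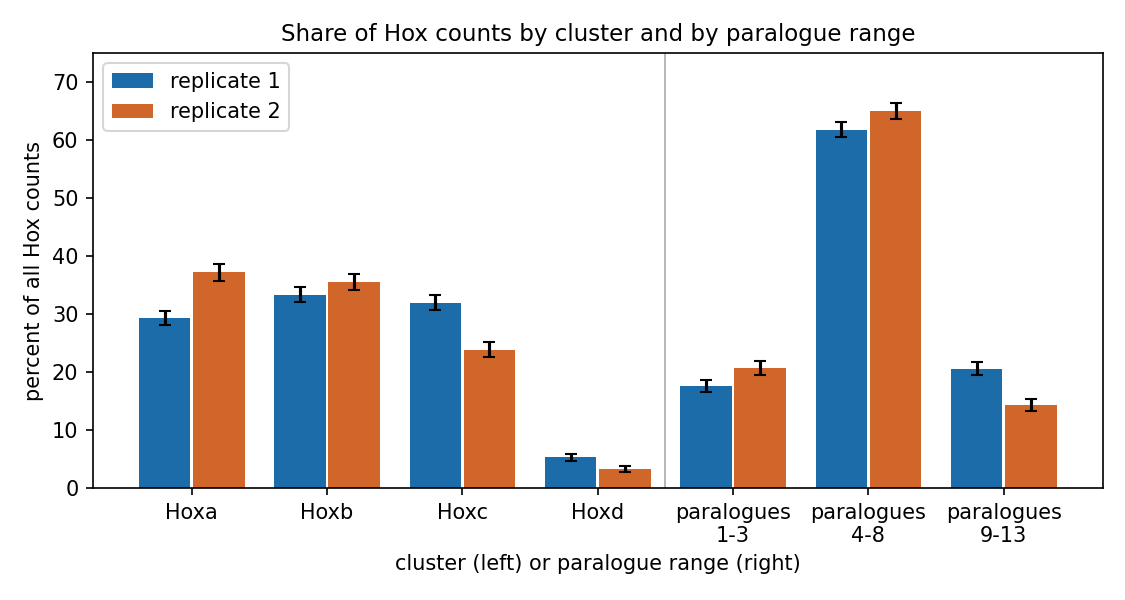
Percent of all Hox counts (vertical axis) held by each cluster and by each range of paralogue numbers, in replicate 1 and replicate 2. Error bars are exact 95% intervals for counting error, and those of the Hoxa, Hoxc and Hoxd clusters and of all 3 paralogue ranges do not overlap between the libraries.

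Gene by gene, replicate 2 was compared with replicate 1 by a binomial test (exact, two-sided) whose null split of the counts was that of the library totals, adjusted by Benjamini-Hochberg over all 23690 genes with 10 or more counts. This compares 2 libraries and no condition, and it counts sampling noise only. Of the 39 Hox genes, 30 were tested and 9 had too few counts. The test called 12 of them, or 40.0%, beside 44.1% of all tested genes, a share near the background. Lower in replicate 2 were 9 (30.0%, beside 27.2% of all tested genes), and higher were 3 of the 30, beside 16.9% of all. On log2(CPM + 0.5), replicate 2 minus replicate 1 had a median of -0.10 over the tested Hox genes and -0.07 over all tested genes. The split of calls rests on the scaling, as 6443 of all tested genes were lower and 3993 higher, against 5069 and 5374 under TMM. DESeq2 size factors gave 4977 lower and 5494 higher, and scaling to basal keratinocyte markers gave 13610 lower and 962 higher. Against the spread between the libraries, a coefficient of variation of 23.4% shared by all tested genes, edgeR's exact test called no Hox gene in either direction at an adjusted p of 0.05, beside 0.198% of all tested genes lower and 0.0760% higher. At an unadjusted p of 0.05 it named 3, Hoxc9, Hoxd8 and Hoxd9, at edgeR exact adjusted p of 0.254, 0.376 and 0.600. The share of all tested genes at that unadjusted level was not counted, so the 3 are not shown to stand out. The dispersion of edgeR's test came from the difference between these same 2 libraries, which limits the calls it can make. The absence of adjusted calls therefore does not show that Hox levels were alike.

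Genes of the Hoxc cluster made up 5 of the 9 lower calls. Hoxc13 had 16.5 CPM in replicate 1 and 8.99 CPM in replicate 2, a ratio of 0.544 (95% interval 0.472 to 0.626, binomial adjusted p = 1.31e-17, edgeR exact adjusted p = 0.758). Hoxc8 had 12.8 and 8.96 CPM, a ratio of 0.698 (0.602 to 0.808, binomial adjusted p = 4.93e-06), and Hoxc6 had 10.1 and 6.93 CPM, a ratio of 0.687 (0.580 to 0.812, binomial adjusted p = 3.32e-05). The 3 genes were lower by 1.43-fold to 1.84-fold. Hoxc9 had the lowest ratio, 0.309 (0.178 to 0.513), on 71 and 20 counts. Hoxc5 had 80 and 46 counts and was called at an adjusted p of 0.0304, but not with TMM or DESeq2 scaling, where it stood at 0.0678 and 0.0679. Hoxc4 missed the threshold at 0.0701 with a ratio of 0.765 (0.595 to 0.981).

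Outside Hoxc, the lower calls were Hoxb9, Hoxb6, Hoxd8 and Hoxd4. Hoxd8 had 6.27 and 2.54 CPM, a ratio of 0.405 (0.312 to 0.521, binomial adjusted p = 6.67e-13, edgeR exact adjusted p = 0.376). Hoxb9 had 8.94 and 4.75 CPM, a ratio of 0.531 (0.437 to 0.644, binomial adjusted p = 1.6e-10). Hoxb6 had 9.32 and 6.60 CPM, a ratio of 0.708 (0.595 to 0.841). Its neighbours Hoxb5 and Hoxb7 were not called, at ratios of 0.730 (0.518 to 1.02) and 1.15 (0.846 to 1.55). Hoxb8, on the far side of Hoxb7, was not called at 1.17 (0.999 to 1.36). Hoxd4 passed narrowly at an adjusted p of 0.0484, and not with TMM (0.0666), DESeq2 size factors (0.0669) or without the count filter (0.0649).

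The 3 higher calls were Hoxa7, Hoxb2 and Hoxd9. Hoxa7 had 13.3 CPM in replicate 1 and 16.6 CPM in replicate 2, a ratio of 1.24 (1.10 to 1.41, binomial adjusted p = 0.00163), and with the libraries scaled to the basal keratinocyte markers its log2 ratio turned to -0.02 (adjusted p = 0.856). Hoxb2 had 88 and 134 counts, a ratio of 1.67 (1.27 to 2.21, binomial adjusted p = 0.000784), and 0.0685 under that scaling. Hoxd9 had 12 and 30 counts, a ratio of 2.74 (1.36 to 5.87, adjusted p = 0.00840). In GENCODE release M21, 20.4% of the exon bases of Hoxa7 lie under exons of the antisense gene Hoxaas3, and 27.3% of those of Hoxb2 under Hoxb3os. No strand setting is given for the counting, so reads of these genes and their antisense partners cannot be told apart, although Hoxaas3 had 30 and 26 counts and Hoxb3os 8 and 7.

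By cluster, Hoxa had 0 genes lower and 1 higher of 10 tested, at a median log2 ratio of 0.05, but 4 lower and 0 higher at -0.22 with the libraries scaled to the basal markers, a scaling that moves log2 ratios by about -0.34. These counts stand beside 27.2% lower and 16.9% higher among all tested genes, and beside 57.5% lower and 4.06% higher under the basal scaling. Hoxb had 2 lower and 1 higher of 8, at 0.02, or 4 lower and 0 higher at -0.30 under that scaling. Hoxc had 5 lower and 0 higher of 8 (62.5% lower, beside 27.2% of all tested genes), at -0.50, and 6 lower under the basal scaling, and its median was below 0 under TMM (-0.43), DESeq2 size factors (-0.42) and the basal scaling (-0.80). Hoxd had 2 lower and 1 higher of 4. The difference between clusters was not tested. All 10 fibroblast markers were lower in replicate 2, at a median of -0.94, from Col1a1 at 5588 and 2620 CPM to Mfap5 at 33.5 and 16.1 CPM. The mural markers, with 4 of 4 tested lower, and the melanocyte markers, with 5 of 6 lower, moved the same way at medians of -1.03 and -0.67. Basal markers had 8 of 10 higher at a median of 0.34, and spinous markers 6 of 6 higher at 0.74. The part of these cell types, or of the sex of the animals, in the Hox differences was not tested.

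**Figure D3:**
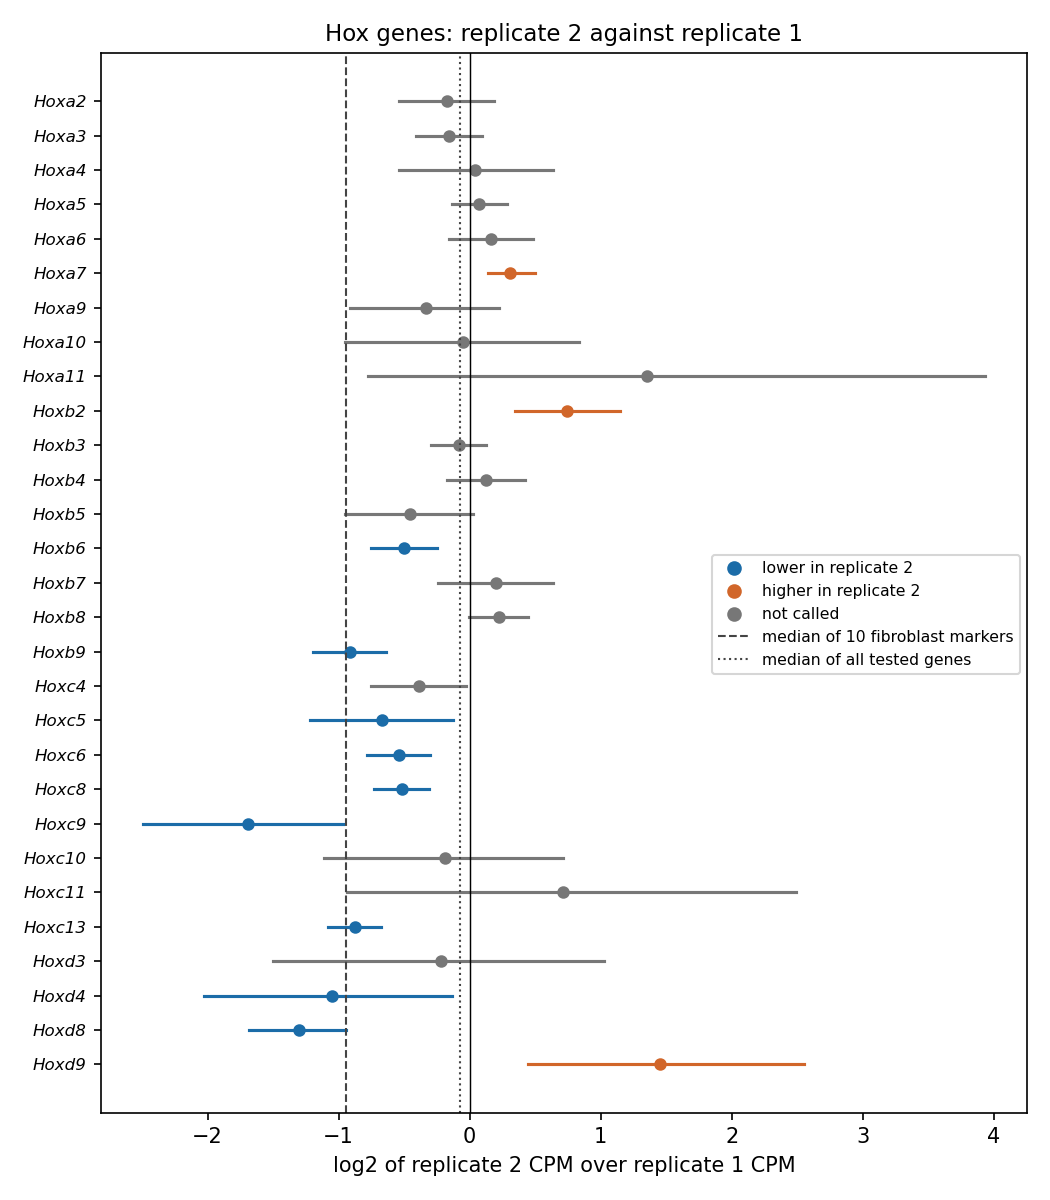
Log2 of the CPM in replicate 2 over that in replicate 1 (horizontal axis) for 29 of the tested Hox genes, with exact 95% intervals for counting error and colours for the binomial call. Dashed and dotted lines mark the medians of the fibroblast markers (-0.94) and of all tested genes (-0.07) on log2(CPM + 0.5), and the Hoxc genes from Hoxc4 to Hoxc9 and Hoxc13 lie to the left of 0.

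Calls differed among paralogues of one number, a difference that was not itself tested. In group 8, Hoxc8 and Hoxd8 were lower in replicate 2 and Hoxb8 was not called. In group 9, Hoxb9 and Hoxc9 were lower, Hoxd9 was higher and Hoxa9 was not called at a ratio of 0.792 (0.532 to 1.17). In group 6, Hoxb6 and Hoxc6 were lower, while Hoxa6 stood at 4.39 and 4.93 CPM, a ratio of 1.12 (0.898 to 1.40). The genes not called included several well-measured Hoxa and Hoxb members, among them Hoxa5 at 10.2 and 10.8 CPM, a ratio of 1.05 (0.910 to 1.22), and Hoxb3 at a ratio of 0.944 (0.815 to 1.09). With the libraries scaled to the basal markers, Hoxa5 was called lower, at a log2 ratio of -0.25 (adjusted p = 0.0256), and Hoxb3 at -0.40 (adjusted p = 0.000162).

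The noncoding genes listed for the clusters were measured at low counts. Of 15 such genes, Hotairm1, transcribed from the anterior end of Hoxa, was highest at 86 and 112 counts, a ratio of 1.43 (1.07 to 1.91, binomial adjusted p = 0.0366). Hoxaas2 had 60 and 47 counts, Hoxaas3 30 and 26, Hoxb5os 26 and 17 and Hoxb3os 8 and 7, and none of these was called. Hotair, which lies among the posterior Hoxc genes, had 7 counts in replicate 1 and 0 in replicate 2. Hottip, from the posterior end of Hoxa, had no count in either library, nor had Mir10b, Mir196a-1 and Mir196b. Of the 15 listed, the 5 with 10 or more counts lie in Hoxa and Hoxb. The list was not a full set, and other genes that overlap the clusters, such as Haglr at Hoxd3, were not examined.

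Of 9 genes measured at the borders of the clusters, 5 had 10 or more counts. Skap2, beside the Hoxa cluster, stood at 113 and 119 TPM, Smug1, beside Hoxc4, at 4.50 and 4.73 TPM, and Mtx2, beside Hoxd1, at 45.9 and 40.2 TPM. Calcoco1, beside Hoxc13, stood at 47.9 and 41.3 TPM. These genes had RNA in both libraries, beside Hox genes that ranged from Hoxd1 at 2 and 1 counts to Hoxc13 at 606 and 301. Skap1, beside Hoxb1, had 5 and 2 counts, and the homeobox genes Evx1 and Evx2, beside Hoxa13 and Hoxd13, had 5 and 0 and 2 and 0 counts. Ttll6, beside Hoxb13, had 4 and 0 counts. Lnpk, a gene near Hoxd that lies beyond Evx2, had 9.41 and 6.57 TPM. By the binomial test Calcoco1, Mtx2 and Lnpk were lower in replicate 2 and none of the 5 was higher, beside 27.2% lower and 16.9% higher among all tested genes.

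TALE homeodomain proteins bind DNA together with Hox proteins, and 7 of the 8 genes described here reached 1 CPM in both libraries. Pbx2, a Hox partner, had 25.8 and 28.6 TPM, above the highest Hox gene in both libraries. Pbx3 had 10.8 and 10.3 TPM and Pbx4 0.643 and 1.55 TPM. Among the partners that bind Pbx proteins, Pknox1 stood at 11.4 and 12.5 TPM, Meis1 at 9.14 and 7.05 TPM, Pknox2 at 6.02 and 2.78 TPM, Meis2 at 2.02 and 2.35 TPM and Meis3 at 1.39 and 1.61 TPM. By the binomial test 2 of the 8 were lower in replicate 2 (Meis1 and Pknox2) and 2 higher (Pbx2 and Pbx4), at a median log2 ratio of 0.14, beside the same background of 27.2% and 16.9%. Pknox2 had the lowest ratio, 0.461 (0.388 to 0.546, binomial adjusted p = 7.34e-20, edgeR exact adjusted p = 0.502).

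**Figure D4:**
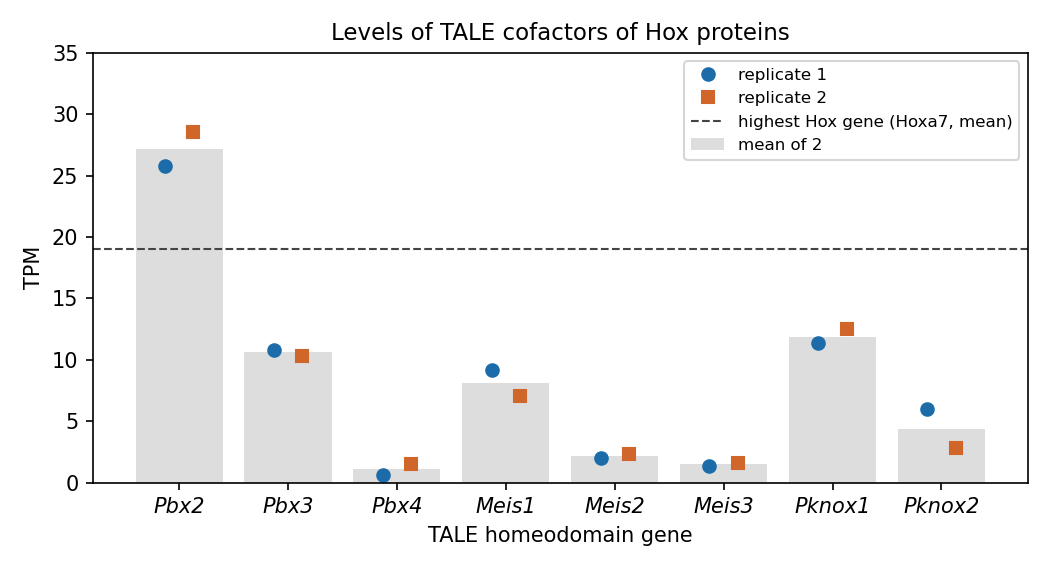
Level of 8 TALE genes in TPM (vertical axis), with circles for replicate 1, squares for replicate 2 and bars for their mean. The dashed line is the mean of Hoxa7 (19.0 TPM), and Pbx2 lies above it in both libraries.

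Regulators of Hox transcription were present except for the Cdx genes. Cdx1, Cdx2 and Cdx4, which open the clusters in the embryonic trunk and act in the gut, had no count in either library. The other 14 of 17 genes passed 1 CPM in both libraries. The highest by mean CPM were the H3K27 demethylase Kdm6b at 369 and 455 CPM, the H3K4 methyltransferase Kmt2a, which maintains Hox expression, at 240 and 248 CPM, and the demethylase Kdm6a, an X-linked gene, at 159 and 96.5 CPM, although Kmt2b, at 105 and 129 CPM, exceeded it in replicate 2. The lowest of the 14 was the Polycomb gene Cbx7 at 4.25 and 6.39 CPM. Of the 14, 6 were lower and 4 higher in replicate 2, at a median log2 ratio of -0.09, beside 27.2% lower, 16.9% higher and a median of -0.07 among all tested genes.

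Genes of hair shaft differentiation, several of which are regulated by Hoxc13, were set beside it. Of 12, 11 were tested, and 7 were lower and 2 higher in replicate 2, at a median log2 ratio of -0.54, beside 27.2% lower and 16.9% higher and a median of -0.07 among all tested genes. The highest by CPM was Lef1, a mediator of Wnt signalling in the hair matrix, with 24.7 and 12.5 CPM in replicates 1 and 2. Foxn1, a known Hoxc13 target, had 9.10 and 15.3 CPM and was 1 of the 2 higher genes, while Foxq1, another, had 9.59 and 9.41 CPM and was not called. Hoxc13 differed in the direction of Lef1 and against that of Foxn1. The hair keratin Krt35 had 26 and 3 counts and Krt85 14 and 1, and the lowest gene was Krt82 with 2 and 0. Padi3, the other higher gene, had 17 and 33 counts. By edgeR's exact test no gene of this list was called in either direction.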

How the data were processed

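Paired-end RNA sequencing of ribosomal RNA-depleted total RNA gave 1 table per library. The authors deposited raw counts with each gene's length. Per the submitters' processing notes these came from featureCounts on mm39. For aligner, annotation release and strand setting, nothing is given in the sources used here. No library was left out. CPM used the total of all counts and TPM the deposited length. Genes with 10 or more counts over both libraries entered the binomial test, adjusted by Benjamini-Hochberg at 0.05, and edgeR's exact test with the common dispersion of an intercept-only fit. Log2 ratios used a pseudocount of 0.5 CPM. Levels are described without a test, since an exact two-sided sign-flip test over 2 libraries has a smallest p of 0.5. Both tests were also run on simulated counts, with counting error only for the binomial test, and the outcomes are not reported here. Such counts cannot show how often that test errs on libraries that differ by more than counting error. The members and lists were chosen with earlier results of these data known, and some genes of these lists are not reported here. Of 10 flanking genes, Prac1 was not matched. Gene models came from GENCODE release M21 and sequences from RefSeq, both on GRCm38, matched by symbol. The planned comparison of homeodomain proteins was not run. Software was Python 3.11.15, scipy 1.17.1, R 4.3.3, edgeR 4.0.16 and DESeq2 1.42.0.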

Additional observations from a re-analysis of the deposited data

How the results depend on the processing

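Scaling and the choice of test moved the counts of called Hox genes. Of the 9 lower calls, 7 were left in number with TMM or DESeq2 size factors and 8 without the count filter. By edgeR's exact test 0 of 30 were lower, beside 0.198% of all tested genes. Scaling to the basal markers, chosen after seeing the data, gave 16 of 30, beside 57.5% of all tested genes. Over all genes, lower calls went from 6443 to 5069 with TMM, 4977 with DESeq2 size factors and 6275 without the filter. The 3 higher calls became 5 with TMM and with DESeq2 size factors, 1 with the basal scaling and 0 with edgeR's exact test. Over all genes, higher calls went from 3993 to 5374, 5494, 962 and 18 in these settings. The Hox calls thus moved in the direction of those over all genes. Under the basal scaling the median log2 ratio of the tested Hox genes was -0.35, beside -0.34 for all genes, and 7 of the 12 tested Hox genes with a ratio above 0 turned below 0, as the scaling moves all genes down together. Among these, Hoxa5 (-0.25) turned to a lower call and the higher call of Hoxa7 (-0.02) was lost. Other scalings and pseudocounts left that median between -0.16 and -0.06. Hoxb8 was called higher with TMM (adjusted p = 0.0208). The number of Hox genes counted as detected was 10 at 5 CPM in both libraries, 25 at 0.5 CPM, and 22 to 23 when one library was left out. The Hoxb share was 32.2% by TPM, against 34.5% by counts. Leaving out one library put the summed Hox level at 130 or 152 CPM. The cause of these changes was not tested. No paired analysis was possible because the 2 libraries form a single group. Depth limits the posterior genes, which had at most 25 counts per library apart from Hoxa9, Hoxb9, Hoxc9, Hoxd9 and Hoxc13.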
